A study of Danio rerio with 6 samples.

Results

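The cytosolic ribosome is built from a small (40S) and a large (60S) subunit, each a scaffold of ribosomal RNA carrying many proteins that are needed in matched amounts. The mRNAs of these proteins are among the most abundant in any growing cell, and in vertebrates most begin with a terminal oligopyrimidine tract through which the mTOR complex 1 and Larp1 control their translation. In hepatocytes, which secrete most plasma proteins, these transcripts take a large share of the mRNA pool. The genes described here are those whose symbol begins with rpl or rps followed by a digit, together with rplp0, rplp1, rplp2, rplp2l and rpsa, leaving out 11 symbols that begin with rps6k and encode kinases. This gave 83 of the 23745 genes in the table, 48 with an rpl symbol (large subunit) and 35 with an rps symbol (small subunit). Of these, rpl7l1 and rps19bp1 encode nucleolar relatives or partners of ribosomal proteins and not subunits of the mature ribosome. Subunit genes under other names, such as faua and gnb2l1 (rack1), lie outside the rule and are given separately.

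The source was zebrafish larvae at 6 days post fertilisation, from which 2000 fluorescent hepatocytes a sample were sorted for poly(A) RNA sequencing. The 3 CTL samples came from Tg(fabp10a:eGFP) larvae, in which the hepatocyte promoter of fabp10a drives a green reporter. The 3 lcat OE samples came from larvae with the same green reporter and Tg(fabp10a:lcat-T2A-mCherry), in which that promoter also drives lcat, the lecithin-cholesterol acyltransferase that esterifies cholesterol on lipoproteins, and a red reporter. No group carried the red reporter without lcat, so the reporter, the fish line and lcat cannot be told apart. The labels do not say whether replicates came from separate clutches or sorts, so the spread behind each p-value may be a technical one.

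Library totals ranged from 23336591 to 24890856 counts. As a check of the labels, lcat read 120 to 149 CPM (library-scaled counts with TMM factors) in the controls and 1958 to 3255 CPM in the overexpressing libraries. Its log2 fold change was 4.25 (SE 0.201) with an adjusted p of 1.35e-06. All 15 hepatocyte markers were detected in both groups and held 25.3% to 26.5% of counts in CTL and 29.8% to 30.4% in lcat OE, with 2 higher and 2 lower. Several marker lists of other cells differed between the groups. Of 12 epidermal markers 9 were higher and 0 lower, and their summed share went from 0.0321% to 0.0797% in CTL to 0.826% to 1.45% in lcat OE. Lower shares in lcat OE were held by 13 exocrine pancreas markers (5 of 13 tested lower, 0.0706% to 0.175% against 0.00452% to 0.0237%), 11 muscle markers (5 of 10 lower, 0.00559% to 0.0228% against 0.0012% to 0.00155%), 10 neural and photoreceptor markers (8 of 9 lower, 0.00469% to 0.00734% against 0.000692% to 0.000875%) and 5 xanthophore markers (4 of 5 lower, 0.0302% to 0.0531% against 0.0154% to 0.0177%, with aox5 at 0 in lcat OE). Nearly all of the xanthophore share in lcat OE came from xdh, the marker not called (202 to 168 CPM), while gch2 went from 153 to 0.157 CPM. For 5 biliary markers 2 of 5 were lower (0.228% to 0.255% against 0.107% to 0.134%). Of 6 tested macrophage markers 4 were higher and 1 lower, at 0.00199% to 0.00316% in CTL against 0.00362% to 0.00408%. Of 4 tested endothelial markers 2 were lower (0.000371% to 0.000783% against 0.000105% to 0.000169%). Shares overlapped for erythroid markers (0 of 4 called, 0.00256% to 0.00547% against 0.000902% to 0.0036%) and for intestinal markers (2 of 3 higher, 0.169% to 0.196% against 0.161% to 0.176%). The part of these cells in the values below was not tested.

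The part of the RNA made up by ribosomal protein mRNA overlapped between the groups. The members held 10.6%, 10.6% and 9.91% of counts in the 3 CTL libraries and 9.86%, 10.1% and 10.5% in lcat OE. The group means were 10.3% ± 0.372 and 10.1% ± 0.305 (SD, n = 3 each), and the groups overlapped. Because these mRNAs are short, their share is larger in TPM, a unit corrected for transcript length. Of the summed TPM they held 22.2%, 22.4% and 21.6% in CTL and 20.7%, 21.0% and 22.0% in lcat OE, again with overlap. In bulk samples of this kind, fewer cells of a type and less RNA per cell cannot be told apart. For the balance of the subunits, summed TPM of the rpl genes was 1.43, 1.42 and 1.41 times that of the rps genes in CTL and 1.45, 1.44 and 1.46 times in lcat OE. These ratios did not overlap, and the means differed by 2.2% (1.42 ± 0.00785 and 1.45 ± 0.0105). Single genes often lacked overlap too: on TPM 14% of all genes were higher and 33.1% lower without it. Whether the order by effective length given below has a part in this ratio was not tested.

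**Figure D1:**
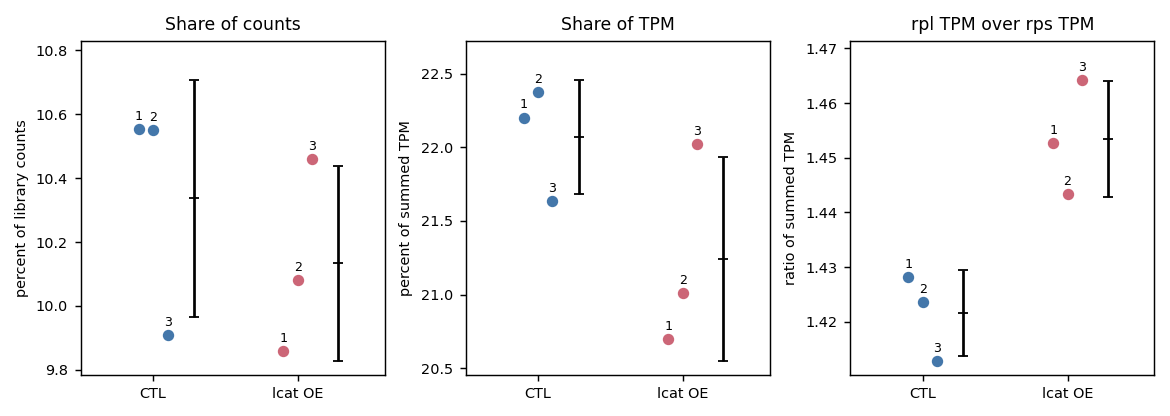
Share of library counts (left, percent), share of summed TPM (middle, percent) and ratio of rpl to rps TPM (right) held by the ribosomal protein genes, with 1 numbered point per library and the mean ± SD beside each group; the axes do not start at 0. The shares overlap between CTL and lcat OE, and the ratio is 1.41 to 1.43 in CTL and 1.44 to 1.46 in lcat OE.

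Within the ribosome the transcripts were far from equal in level. Averaged over all 6 libraries, the 80 tested subunit genes ran from 292 TPM for rpl31 to 12537 TPM for rps20, with a median of 2372 TPM. This order depends on the effective lengths behind the TPM, which the deposited values put at 1019 bases for rpl31 and 47 for rpl27a. An effective length is the one implied by count and FPKM, and not the full transcript length. By counts rpl27a was the lowest of them, with 17.0 CPM in CTL and 17.6 in lcat OE, against 352 and 364 for rpl31. Among the highest were rps20 with 12916 ± 104 TPM in CTL, rpl32 with 11140 ± 275, rpl36 with 6464 ± 170, rps12 with 5870 ± 142, rps2 with 5830 ± 124, rpl37 with 4763 ± 338 and rpl19 with 4705 ± 62.2 (SD, n = 3). In lcat OE the same genes had 12159 ± 469, 10961 ± 352, 6700 ± 451, 5624 ± 253, 5032 ± 30.7, 5282 ± 406 and 4511 ± 120 TPM. Of these, rps2 stood above rpl37 in CTL and below it in lcat OE by group mean. In lcat OE 1 alone rps2 (5004 TPM) was still above rpl37 (4953 TPM). Across the 80 genes, the log2 mean TPM of the groups correlated with a Pearson r of 0.994, a description across genes that share libraries and length corrections. On TPM replicates were close, with a median coefficient of variation of 2.7% in CTL and 3.04% in lcat OE. The highest value on TPM was 12% (rpl27a in CTL). The test used TMM-scaled CPM instead, on which the replicates of rps20 and rpl32 lay further apart. On that scale rps20 averaged 4235 ± 577 with lcat overexpressed, against 4014 ± 195 for the controls (SD, n = 3). For rpl32 these values were 4048 ± 529 and 3680 ± 274. The only member that failed the filter on low counts was rps8b, with 12 counts in all libraries together against 265266 for its paralog rps8a. The non-subunit members were low, with 28 to 29 mean TPM for rpl7l1 and 13 to 14 for rps19bp1.

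Between the groups the ribosomal protein genes stayed within a narrow band while much of the transcriptome differed. With edgeR's quasi-likelihood test, 0 of 82 tested members passed an adjusted p of 0.05 in either direction. Over all 14096 genes tested 32.6% passed, 16.3% higher and 16.3% lower, and among 733 other genes of at least 100 CPM 37% passed. At an unadjusted p under 0.05 the members numbered 6, against 42.9% of all genes. DESeq2 called 1 member, rps26, higher, against 12% of the genes it tested. The members' log2 fold changes lay between -0.16 (rpl10) and 0.37 (rpl38), 69 above and 13 below 0. Their median absolute log2 fold change was 0.12, against 0.42 over all genes and 0.30 over the other genes of at least 100 CPM.

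The intervals give the range of change allowed by the spread between libraries, with the TMM factors held fixed. They leave out the differences between scalings given below. The SE of a member's log2 fold change was 0.11 to 0.16 (median 0.12), against a median of 0.23 over all genes. All 82 of the 95% intervals lay inside a 2-fold change in either direction and 77 lay inside 1.5-fold. The lowest bound was -0.45, for rpl10, and the highest 0.68, for rpl38.

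**Figure D2:**
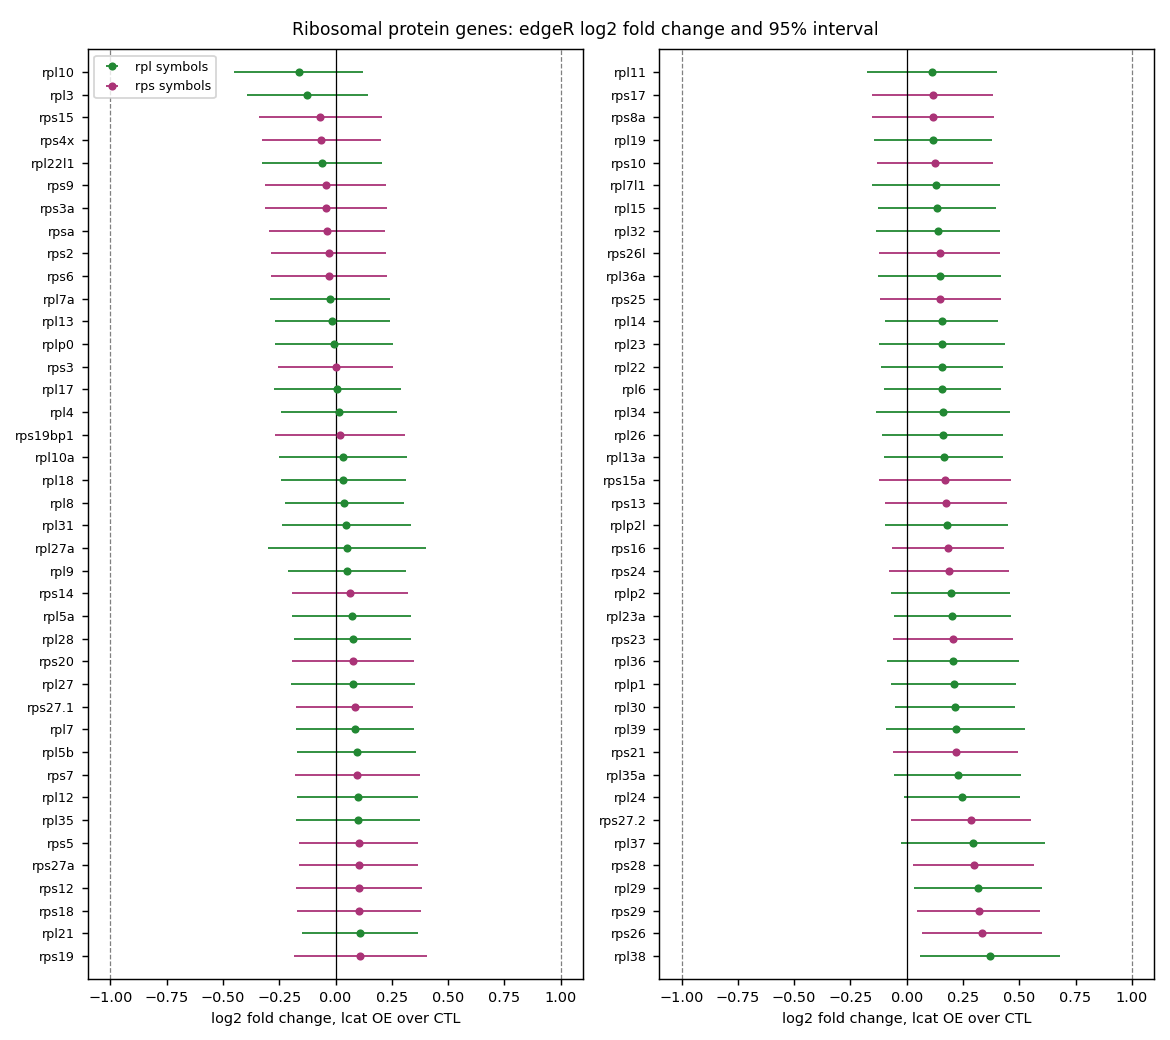
The log2 fold change (lcat OE over CTL, x axis) of 80 of the 82 tested members with its 95% interval, ordered from lowest to highest and coloured by rpl or rps symbol; dashed lines mark a 2-fold change. Each interval lies between the dashed lines, and 6 exclude 0, those of rps27.2, rps28, rpl29, rps29, rps26 and rpl38.

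**Figure D3:**
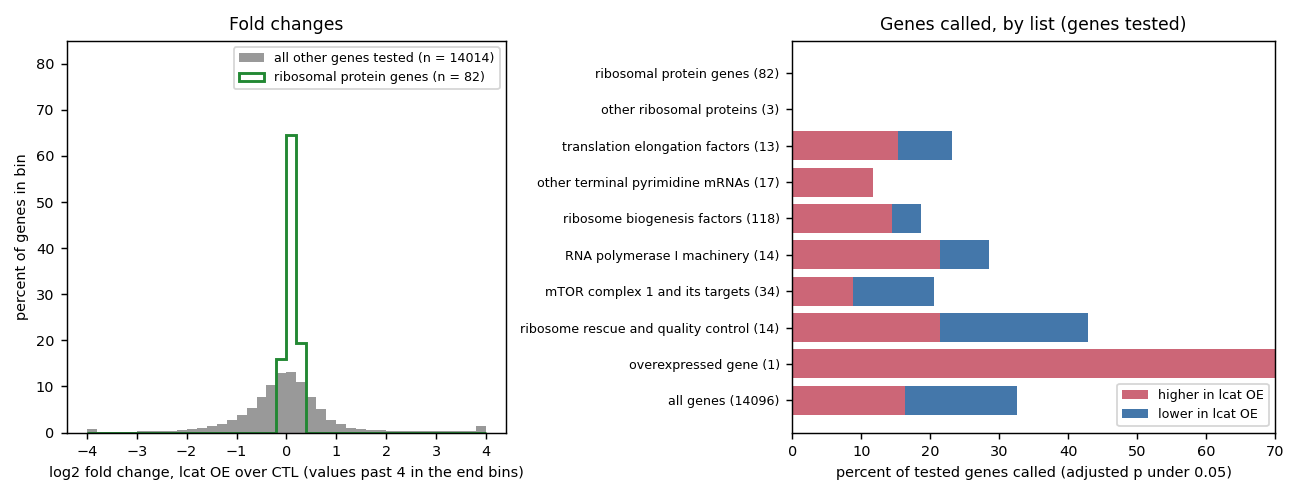
Left, percent of genes (y axis) in bins of log2 fold change for the 82 members and the 14014 other genes tested; right, percent of the tested genes of each list that were called higher or lower, with the number tested in parentheses. The members fall between -0.16 and 0.37 and have 0 calls, while 32.6% of all genes were called.

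The size of the members' median log2 fold change differed between scalings and units. With TMM factors their median log2 fold change was 0.11, against -0.02 for all genes. It was 0.01 with library totals, where the median of all genes was -0.11. With limma on log2(TPM + 1), which also corrects for length, it was -0.06, against -0.09 for all genes. With TMM factors 1 library stood apart: the median member lay at 0.31 above the CTL mean (log2 CPM) in lcat OE 3, and at -0.04 and 0.05 in lcat OE 1 and 2. The TMM factor of lcat OE 3 was 0.869, against 0.998 to 1.06 in the others. Without lcat OE 3 the members' median was 0.03, and without lcat OE 1 it was 0.20.

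Among the small-subunit genes, rps26, whose protein lines the mRNA exit channel, came nearest to the threshold. It read 275, 265 and 246 CPM in the 3 controls and 298, 313 and 380 CPM with lcat overexpressed. All 3 lcat OE libraries were above all 3 CTL libraries. The log2 fold change was 0.33 (SE 0.12, adjusted p = 0.0567), and the adjusted p was 0.0397 without lcat OE 1. With any other library left out, no member passed in the same test, while 24% to 31.7% of all genes were called. The smallest adjusted p of any member then ran from 0.0557 (without lcat OE 3) to 0.199 (without CTL 3). The exit-channel neighbour rps28 (log2 fold change 0.30, SE 0.12, adjusted p = 0.0842) and the small zinc-binding protein gene rps29 (0.32, SE 0.12, adjusted p = 0.0715) also had no overlap in CPM. The kinase target rps6 read 2010, 1941 and 1824 CPM in the controls and 1743, 1792 and 2125 CPM with lcat overexpressed, with overlapping groups (log2 fold change -0.03, SE 0.12, adjusted p = 0.874). The log2 fold changes were also small for rpsa, the homologue of the laminin receptor precursor (-0.04, adjusted p = 0.833), for rps19, mutated in human Diamond-Blackfan anaemia (0.11, adjusted p = 0.565), and for rps27a, made as a ubiquitin fusion (0.10, adjusted p = 0.547). The mRNA entry-channel gene rps2 was at -0.03 (adjusted p = 0.867), and the most abundant member rps20 was at 0.08 (adjusted p = 0.67).

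Among the large-subunit genes, rpl38, required in mouse for translation of Hox mRNAs, had the highest log2 fold change. It read 287, 314 and 236 CPM in the controls and 330, 333 and 418 CPM with lcat overexpressed, without overlap (log2 fold change 0.37, SE 0.14, adjusted p = 0.0679). Next was rpl29 (0.32, SE 0.13, adjusted p = 0.0833), whose adjusted p was 0.0426 without lcat OE 1. It did not pass with any other library left out. At the other end stood rpl10, which joins the large subunit last, next to the peptidyl transferase centre. The 3 controls read 2001, 1745 and 1603 CPM and the 3 overexpressing libraries 1444, 1513 and 1816 CPM, with overlap (log2 fold change -0.16, SE 0.13, adjusted p = 0.364). The core peptidyl transferase gene rpl3 was second lowest (-0.13, SE 0.12, adjusted p = 0.463), with overlap as well. The stalk that recruits elongation factors showed -0.01 for rplp0 (adjusted p = 0.968), 0.21 for rplp1 (0.231), 0.19 for rplp2 (0.238) and 0.18 for rplp2l (0.302). The 5S ribonucleoprotein genes, whose proteins bind Mdm2 in mammals when ribosome assembly fails, were at 0.07 for rpl5a (adjusted p = 0.686), 0.09 for rpl5b (0.583) and 0.11 for rpl11 (0.551). Of the members named so far, rpl3, rpl27a, rpl29, rpl31, rpl38, rplp1, rps28 and rps29 were singled out after their values were seen.

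Over the 82 members, CPM of the groups did not overlap for 10 higher and 0 lower genes, against 23.6% and 24.1% of all genes. On TPM 7 were higher without overlap and 30 lower, against 14% and 33.1% of all genes. All genes thus also moved toward lower on TPM, so the direction was not particular to the members. The members' median log2 fold change was 0.112 with TMM factors and -0.058 on log2(TPM + 1). The medians of all genes were -0.016 and -0.093. On log2(TPM + 0.1) the members' median was again -0.058, while that of all genes was -0.183. Whether the members moved further than all genes thus depended on the value added before the log.

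Which members passed the threshold depended on the unit and the filter. Limma on log2(TPM + 1) called 3 members higher and 15 lower, against 9.53% and 21.5% of all genes. The 3 were rpl38, rps26 and rps29. The 15 were rpl3, rpl4, rpl7a, rpl10, rpl13, rpl22l1, rplp0, rps2, rps3, rps3a, rps4x, rps6, rps9, rps15 and rpsa. On log2(TPM + 0.1) rpl29 joined the higher ones and the same 15 were lower, against 9.7% and 21.8%. On log2(FPKM + 1) 8 members were higher and 2 lower, against 11.8% and 17.6%. The exit-channel gene rps26 was among those called higher in each of these, and also alone with RLE factors (16.7% of all genes higher) and alone among genes of at least 5 CPM in 3 libraries (20.3% higher and 20.8% lower). With no filter rps26 and rpl38 were called higher, against 10.5%. Without lcat OE 1, rps26 and rpl29 were called higher, against 13.6%. Calls stayed at 0 with TMM factors computed without ribosomal protein genes (16.2% of all genes higher and 16.3% lower) and with a fit that was not robust (16.3% higher and 16.4% lower).

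The large-subunit genes rpl10 and rpl3 were the only members called lower when each was read against the family. With TMM factors computed over the ribosomal protein genes alone, rpl10 (log2 fold change -0.28, adjusted p = 0.0139) and rpl3 (-0.24, adjusted p = 0.00806) were called lower and 0 members were called higher. Of all genes tested that way, 10.4% were higher and 18.2% lower. With library totals, which do not read a gene against the family and put the median of all genes at -0.11, the same 2 were called lower, against 18.7% of all genes. As a part of the summed ribosomal protein TPM, rpl3 took 1.66% ± 0.0215 in CTL and 1.39% ± 0.00749 in lcat OE (SD, n = 3 each), and rpl10 took 1.26% to 1.43% and 1.09% to 1.11%. In the other direction rps26 took 0.497% ± 0.00563 and 0.584% ± 0.0057, and rpl38 took 1.04% ± 0.0868 and 1.28% ± 0.0446. These 4 have the lowest and highest log2 fold changes of the family, and none overlapped between groups. Of the 82 tested members 22 had a larger and 24 a smaller part in lcat OE without overlap; since the parts share a fixed sum, some must rise where others fall. Of all genes set against the same sum, 14.9% were higher and 29.7% lower without overlap.

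The order of the members followed implied effective length. The effective length implied by deposited counts and FPKM ran from 47 to 1263 bases over the 80 subunit genes. Among the 27 shortest (47 to 286 bases) the median log2 fold change was 0.17, among the next 26 (290 to 450 bases) 0.11, and among the 27 longest (478 to 1263 bases) 0.03. The ratio of mean TPM gave medians of 0.01, -0.06 and -0.15 on the log2 scale for the same genes. Spearman's rho between length and log2 fold change was -0.67 over the 80 genes and -0.74 with the TPM ratio, a description across genes of the same libraries. Over 733 other genes of at least 100 CPM rho was -0.29, and those in the same 3 length ranges had medians of 0.37 (14 genes), 0.46 (24 genes) and 0.15 (222 genes). The median effective length of the subunit genes was 331 to 352 bases in CTL and 335 to 338 in lcat OE. With offsets for these lengths rpl38, rps26, rps29 and rpl29 were called higher and 0 members lower, against 16.1% and 16.6% of all genes. Their mean implied lengths in CTL and lcat OE were 108 and 103 bases (rpl38), 213 and 207 (rps26), 103 and 98 (rps29) and 158 and 152 (rpl29). For the long rpl3 they were 1148 and 1141. The shorter lengths in lcat OE enter these fold changes through the offsets. Whether fragment size or RNA quality has a part in this order was not tested.

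**Figure D4:**
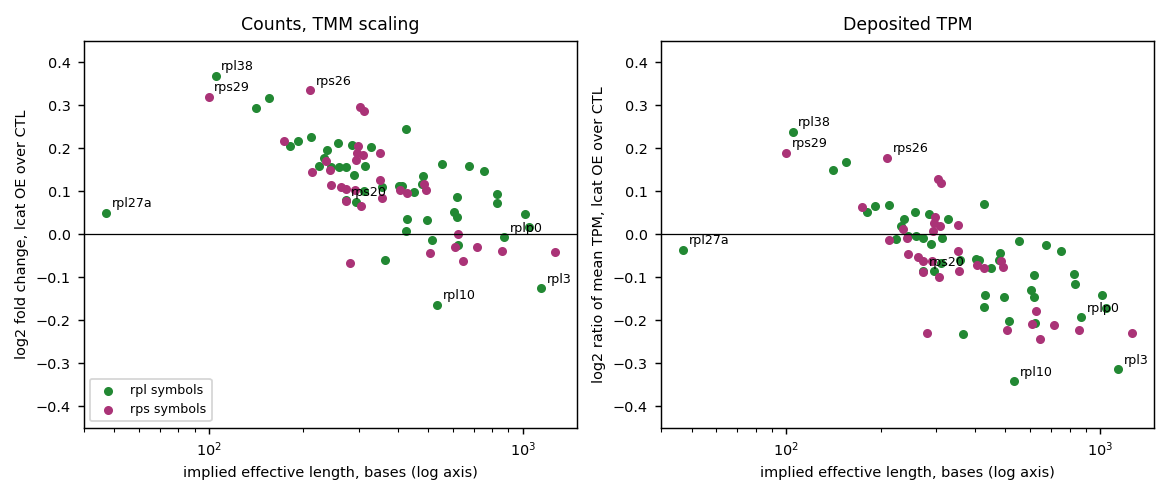
Each of the 80 tested subunit genes by implied effective length (x axis, bases, log scale) against its log2 fold change with TMM scaling (left) and the log2 ratio of its mean TPM (right), lcat OE over CTL, coloured by rpl or rps symbol. Short genes such as rpl38 and rps29 sit highest and long ones such as rpl3 low; rpl27a, at 47 bases, sits near 0.

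By symbol the members hold 7 pairs of related genes, 1 of them rpl7 with the non-subunit gene rpl7l1. Their relative levels can be read inside each library, free of scaling between libraries but not of the order by length given above. Implied lengths in bases were 365 for rpl22l1 and 245 for rpl22, 311 for rps27.2 and 356 for rps27.1, and 812 for rpl7l1 and 617 for rpl7. They were close for rps26l and rps26 (213 and 210), rpl5b and rpl5a (829 and 830), and rplp2l and rplp2 (233 and 237). Whether length has a part in the shares was not tested. In 81 of 83 members, including both genes of each pair, the deposited counts were whole numbers in all 6 libraries (tolerance 0). Shares below are of the pair's summed TPM, and each gene's edgeR test stands beside them. A design of 3 against 3 cannot go below an exact permutation p of 0.1, so no p is given for a share.

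In 3 pairs the shares did not overlap between the groups. Lack of overlap was common in these data: on TPM 14% of all genes were higher and 33.1% lower without it. The rate for shares of other gene pairs was not computed. For the pair rps27.1 and rps27.2, small-subunit genes of 1 zinc-binding protein, rps27.2 held 31.9% to 32.4% in CTL and 35.1% to 35.6% in lcat OE. The means were 32.2% ± 0.252 and 35.4% ± 0.234 (SD, n = 3 each), a difference of 3.15 percentage points. The gene tests gave 0.29 for rps27.2 (SE 0.12, adjusted p = 0.0927) and 0.08 for rps27.1 (SE 0.12, adjusted p = 0.616). For rps26 and rps26l, rps26l held 67.0% to 68.3% in CTL and 63.8% to 65.2% in lcat OE, with means of 67.4% ± 0.748 and 64.4% ± 0.702. Here rps26l stood at 0.15 (SE 0.12, adjusted p = 0.39) beside the 0.33 of rps26. For rpl22 and rpl22l1, RNA-binding subunits of which Rpl22 is dispensable for life in mouse, rpl22l1 held 30.2% to 33.0% in CTL and 27.4% to 28.7% in lcat OE (31.2% ± 1.58 and 27.9% ± 0.669). The log2 fold changes were -0.06 for rpl22l1 (SE 0.12, adjusted p = 0.737) and 0.16 for rpl22 (SE 0.12, adjusted p = 0.36). On counts in place of TPM the differences were 2.95, -2.95 and -3.52 percentage points, again without overlap. Where groups do not overlap, leaving out 1 library cannot reverse a direction, so that check adds nothing here.

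In the other pairs the groups overlapped. The share of rpl5b was 38.4% ± 0.14 in CTL and 38.8% ± 0.371 in lcat OE, and that of rplp2l was 54.0% ± 1.59 and 53.7% ± 0.501. The share of rpl7l1 beside rpl7 was 0.746% ± 0.0674 and 0.77% ± 0.108. The pair rps8a and rps8b was held almost wholly by rps8a, with at most 0.0112% from rps8b in any library. In the same libraries epidermal markers were higher in lcat OE, as given above; whether the shifted pairs differ in use between hepatocytes and epidermal cells was not tested.

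**Figure D5:**
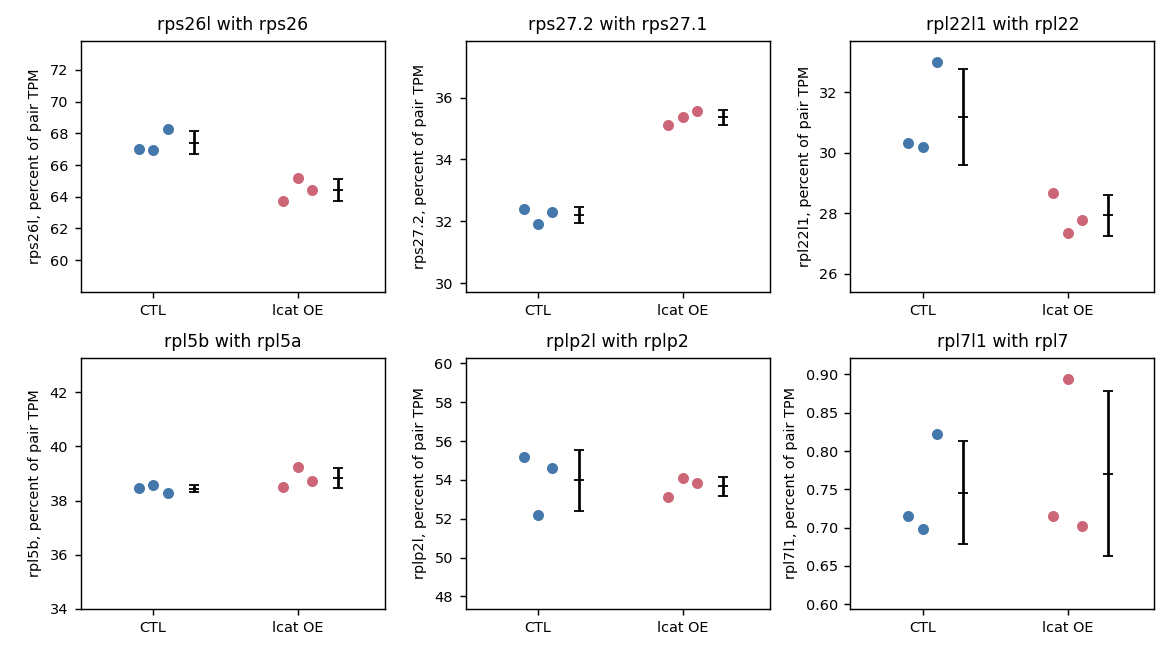
Share of the first-named gene in the summed TPM of its pair (y axis, percent, not starting at 0) in each library, with the mean ± SD beside each group of 3. The groups are apart for rps26l, rps27.2 and rpl22l1 and overlap for rpl5b, rplp2l and rpl7l1.

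Genes that serve the ribosome without the symbols used here gave a setting for these values. Neither faua, the rps30 precursor (log2 fold change 0.07, SE 0.12, adjusted p = 0.683), nor gnb2l1, the scaffold Rack1 (-0.04, SE 0.12, adjusted p = 0.828), passed the test. Of 13 tested genes of elongation factors or of proteins named after them, such as eef2k, 2 were higher and 1 lower. That is 23.1% against 32.6% of all genes. The most abundant, eef1a1l1, which delivers aminoacyl-tRNA, averaged 12380 ± 430 CPM in the controls and 11350 ± 858 CPM with lcat overexpressed (adjusted p = 0.414), and the translocase gene eef2b was at -0.12 (adjusted p = 0.428). The called ones were eif5a2 (126 to 174 CPM, log2 fold change 0.46, SE 0.11), eef1e1 (0.58, SE 0.17) and eef1a1a (14.6 to 7.87 CPM, -0.89, SE 0.16). Of 17 mRNAs known in vertebrates to carry terminal pyrimidine tracts, some of them also in the other lists, 2 were higher, npm1a and hnrnpa1b, and 0 lower, 11.8% in all.

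Ribosome assembly factors were called at below the rate of all genes. Of 118 tested, 17 were higher and 5 lower, 18.6% in all against 32.6%, with a median log2 fold change of 0.07. The called genes with the smallest p all rose. They were nhp2 (6.59 to 13.8 CPM, log2 fold change 1.06, SE 0.13, adjusted p = 0.000237), a protein of the particles that pseudouridylate ribosomal RNA, the ribosomal RNA methyltransferase gene fbl (47.6 to 74.0 CPM, 0.64, SE 0.11, adjusted p = 0.00147) and the processing factor gene imp3 (4.31 to 7.93 CPM, 0.88, SE 0.16, adjusted p = 0.00183). The gene of highest TPM, rsl24d1, was at 0.16 (SE 0.14, adjusted p = 0.42), and the nuclear GTPase gene gtpbp4 fell from 337 to 229 CPM (-0.56, SE 0.13, adjusted p = 0.00721).

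Among genes that make ribosomal RNA or control ribosomal protein mRNAs, the shares called were below the 32.6% of all genes. Of 14 RNA polymerase I genes (28.6% called) 3 were higher, polr1d (3.18 to 6.31 CPM, log2 fold change 0.99, SE 0.18), ubtfl and znrd1, and 1 lower, the catalytic subunit gene polr1a (36.4 to 26.9 CPM, -0.43, SE 0.13). Of 34 genes of mTOR complex 1, its regulators and the control of terminal pyrimidine mRNAs 3 were higher and 4 lower, 20.6% in all. The higher ones were rraga, a Rag GTPase gene (log2 fold change 0.56, SE 0.12), lamtor3 (0.63, SE 0.15) and rhebl1 (0.365, SE 0.12). Those with the smallest adjusted p were all lower: rragca, another Rag GTPase gene (13.5 to 4.70 CPM, -1.52, SE 0.15), the mTOR inhibitor gene deptor (75.3 to 45.2 CPM, -0.74, SE 0.13) and larp4b (-0.60, SE 0.12). Of 14 ribosome rescue genes 3 were higher and 3 lower, 42.9% in all. Those with the smallest p were gtpbp2a (19.7 to 8.80 CPM, -1.16, SE 0.15), eif4e2, a cap-binding protein gene (1.63 to 3.79 CPM, 1.21, SE 0.26), and znf598, a sensor of collided ribosomes (50.6 to 36.6 CPM, -0.47, SE 0.11).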

How the data were processed

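The authors deposited 1 table with expected counts, TPM and FPKM for each gene and library. Tools named without roles, per the submitters' processing notes, were RSEM 1.3.1, Bowtie2 2.3.4.3, HISAT and DESeq2 1.4.5, with the build GRCz11; no annotation is named. Deposited columns of counts divided by 1 factor per library (a signal) and group averages were not used. The labels' protocols give no strand-specific step.

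Counts were rounded and tested over all genes by edgeR 4.0.16 under R 4.3.3 (TMM, filterByExpr, robust quasi-likelihood, group as the only term, two-sided, Benjamini-Hochberg, threshold 0.05). SE is the absolute log2 fold change over the square root of F; CPM used TMM-scaled library sizes. Effective length in bases was the count over the product of FPKM and the column total, rescaled. Alternatives used DESeq2 1.42.0, limma 3.58.1 and other scalings, filters, lengths and left-out libraries. Named genes were members of the highest TPM, paralog pairs, members of known role, and in each other list up to 3 with the smallest p and the 2 of highest TPM. Members and lists were chosen with earlier results of these data known. All 83 members were found by gene number in a RefSeq table of GRCz12tu, used for names only, and 82 have the same symbol there. Replicates all differed by more than counting noise (chi-square over its degrees of freedom 11.7 to 37.7). A few genes that the rule would name are not reported here; they stay in the counts and medians.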

Additional observations from a re-analysis of the deposited data

How the results depend on the processing

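The count of ribosomal protein genes called higher (0) became 1 with RLE factors, 1 with at least 5 CPM in 3 libraries, 1 with DESeq2, 2 with no filter, 3 on log2(TPM + 1), 4 on log2(TPM + 0.1), 8 on log2(FPKM + 1) and 4 with effective length offsets. Leaving out each library gave 0 to 2 higher and 0 to 0 lower, the 2 without lcat OE 1. Of all genes in those fits, 12.1% to 16.5% were higher and 11.9% to 15.2% lower. The count called lower (0) became 2 with library totals, 2 with TMM over ribosomal protein genes alone, 15 on log2(TPM + 1), 2 on log2(FPKM + 1) and 15 on log2(TPM + 0.1). The median log2 fold change of the members (0.112) was -0.058 on either TPM scale and 0.030 to 0.200 without 1 library. Their share of counts, differing by -0.204 percentage points (lcat OE minus CTL), differed by -0.83 on TPM and 0.244 without the 20 most abundant other genes. In the main fit 2293 of 14096 genes were higher and 2303 lower (16.3% and 16.3%). Of the same genes, 1463 were higher with TMM over ribosomal protein genes alone, 1344 for log2(TPM + 1) and 1367 for log2(TPM + 0.1). The filter of at least 5 CPM in 3 libraries left 6580 genes, of which 1335 were higher and 1369 lower (20.3% and 20.8%). Of called genes, 49.9% were higher with TMM, 38.8% with library totals 30.8% on log2(TPM + 1) and 36.4% with TMM over ribosomal protein genes alone, which moved the median of all genes to -0.122. The cause was not tested. With a replicate block 0 members were called, with 0 at an unadjusted p under 0.05, and 4192 genes in all against 4596. Deviations from the group mean correlated by -0.047 to 0.016 between same-numbered CTL and lcat OE libraries and by -0.052 to 0.082 between differently numbered ones. These values show no shared signal by number but cannot tell whether same-numbered libraries were collected together. With 12 counts, only rps8b among the members was too low to test.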
